A study of Mus musculus with 6 samples.

Results

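The genes described here are 8 markers of the mesothelium and of the ovarian surface, Msln, Muc16, Upk1b, Upk3b, Lrrn4, Bnc1, Gpm6a and Epcam, taken by symbol from the 46078 genes listed in each library. Each symbol matched 1 row, and all 8 passed the filter on low values. RNA of ovaries from C57BL/6 mice, 8 to 9 weeks old, was sequenced in 3 libraries labelled CTX, for cyclophosphamide, and 3 control libraries. Cyclophosphamide is an anticancer drug that alkylates DNA and can damage follicles, and the series asks how it affects the transcriptome of the ovary. The sources used here do not give its dose, route and timing, any vehicle given to controls, or the stage of the estrous cycle.

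The ovary is covered by a single layer of flat to cuboidal cells, the ovarian surface epithelium, which is continuous with the mesothelium that lines the peritoneal cavity. This layer is opened at each ovulation and closes again afterwards. Its cells carry both mesothelial products, such as mesothelin and uroplakins, and epithelial ones, such as keratins. The layer is a small part of a whole ovary, and the bursa and fat that surround the organ have mesothelium of their own. In bulk samples, fewer cells of a type and less RNA per cell cannot be told apart.

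The values, whose unit no header states, were taken as RPKM, reads scaled to gene length and to library depth. On that reading, levels of different genes can be compared. The steps between low values of short genes gave depths of about 17000000 to 22300000 reads in CTX libraries and 15900000 to 16800000 in control libraries. Controls 1 and 2 and CTX 1 stood apart from the other libraries. The first principal component, with 68.3% of the variance, separated these 3 libraries from CTX 2, CTX 3 and control 3. The most alike pairs by read counts were CTX 2 and 3 and controls 1 and 2, with a median chi-square per gene of 1.21 and 1.34. Both are above the value of 0.455 that sampling noise alone gives, and all 6 libraries were counted. The chi-square does not show whether alike libraries come from separate animals.

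All 8 markers had lower mean levels in CTX than in control, and none passed the test across all genes. The 4 with the clearest separation were Upk1b, Muc16, Msln and Epcam, whose CTX means were 52.6 to 70.4% of their control means. Every CTX library lay below every control library in 5 markers, these 4 and Gpm6a. Across all genes tested this was so in 5.5%, 800 of 14535. Limma called 0% of genes at an adjusted p under 0.05 in either direction, and the adjusted p was 0.99997 for each of the 8 markers. At an unadjusted limma p under 0.05 and lower in CTX there were 4 of the 8 markers, against 2.29% of all genes tested (333 genes, of 501 at such a p in either direction). Without control 1 there were 2 of the 8, against 1.07% of all genes. The median log2 fold change, CTX minus control, was −0.43 over the 8 markers and −0.01 over all genes tested, of which 51.2% were negative.

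**Figure D1:**
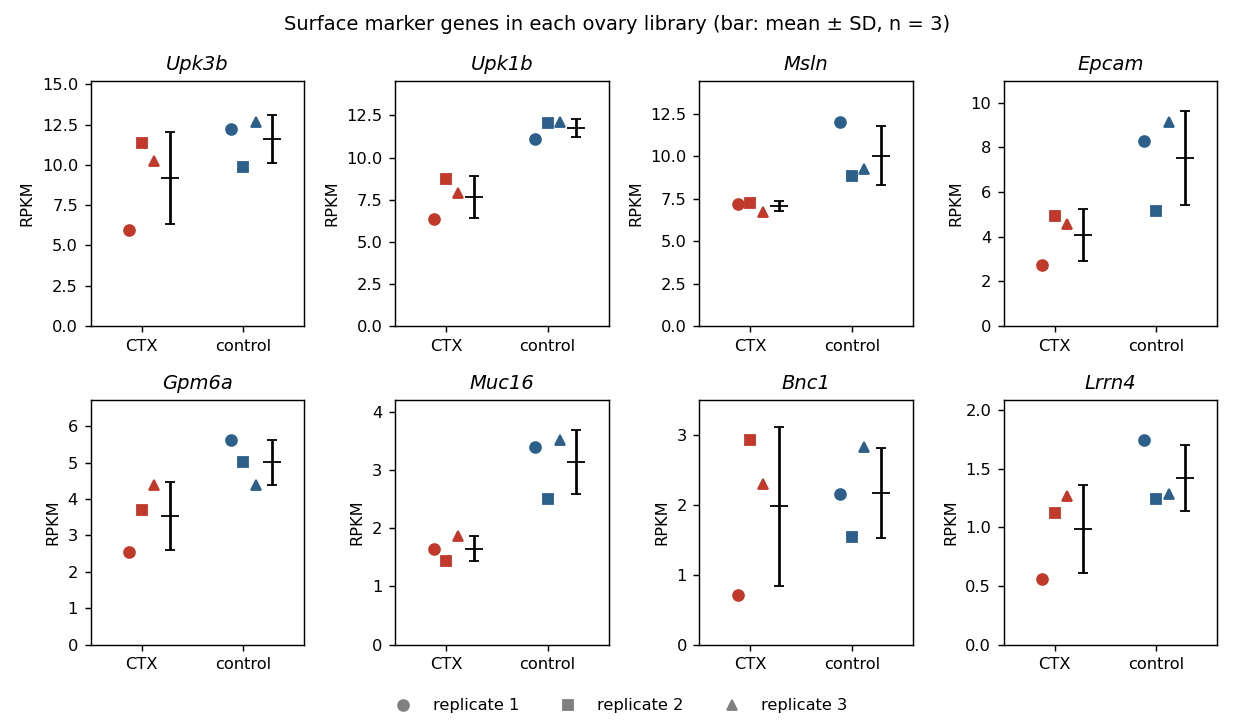
RPKM of the 8 marker genes (vertical axes, from 0) in CTX and control libraries, with 1 symbol per replicate and the mean ± SD beside it (n = 3). Upk1b, Msln, Muc16 and Epcam have all CTX points below all control points, and Gpm6a has a gap of 0.02 RPKM; in Upk3b, Lrrn4 and Bnc1 the groups overlap and CTX 1 is the lowest library.

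The order of levels was similar in both groups. In CTX it ran from Upk3b (mean 9.18 RPKM) through Upk1b (7.66), Msln (7.06), Epcam (4.07), Gpm6a (3.54), Bnc1 (1.98) and Muc16 (1.65) to Lrrn4 (0.983). In control it ran from Upk1b (11.8) through Upk3b (11.6), Msln (10.04), Epcam (7.53), Gpm6a (5.0), Muc16 (3.14) and Bnc1 (2.18) to Lrrn4 (1.42). Neighbours in this order overlapped in their libraries, except Msln and Epcam, and Muc16 and Lrrn4, in CTX and Gpm6a and Muc16 in control. Relative to other genes these levels were moderate to low: 56.6% of the genes tested had a lower mean over the 6 libraries than Upk3b, and 4.25% a lower one than Lrrn4. With exon lengths of the annotation, the 7 markers other than Muc16 rest on about 38 (Lrrn4 in CTX 1) to 893 reads (Upk3b in CTX 2) per library. The identifier of Muc16 has no exon length in the annotation used here.

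Msln and Muc16 encode partners. Msln encodes mesothelin, a surface glycoprotein anchored in the membrane by a lipid and shed in part, and Muc16 encodes a very large transmembrane mucin, whose shed part is the tumour marker CA125. Mesothelin binds this mucin, and both are made by mesothelium and by many ovarian carcinomas.

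Msln (chromosome 17, 25748613 to 25754378, minus strand) had 7.20, 7.26 and 6.73 RPKM in CTX 1, 2 and 3, against 12.03, 8.85 and 9.24 RPKM in controls 1, 2 and 3. The CTX libraries lay within 1 RPKM of each other and below every control, and control 1 was the highest. The means were 7.06 ± 0.290 RPKM in CTX and 10.04 ± 1.73 in control (SD, n = 3 each, here and below). The log2 fold change on log2(RPKM + 1) was −0.44 ± 0.14 (SE), with a 95% interval from −0.78 to −0.10 and an unadjusted limma p of 0.0187. Without control 1 the log2 fold change was −0.32.

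Muc16 had 1.65, 1.43 and 1.87 RPKM in CTX 1, 2 and 3, against 3.40, 2.5 and 3.51 RPKM in controls 1, 2 and 3. The groups did not overlap, and unlike most of the markers its lowest library was CTX 2. Its control mean was 1.9 times its CTX mean, the highest such ratio among the 8 markers, at 1.65 ± 0.220 RPKM in CTX and 3.14 ± 0.554 in control. On log2(RPKM + 1) the fold change was −0.64 ± 0.16, with a 95% interval from −1.02 to −0.25 and an unadjusted limma p of 0.00638. RefSeq places Muc16 on chromosome 9, from 18495445 to 18674821.

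Upk1b and Upk3b encode uroplakins, membrane proteins first known from the plaques that seal the surface of the bladder. Upk1b encodes a tetraspanin, a protein with several membrane spans. Upk3b encodes a single-span uroplakin found in mesothelium, and is widely used as a mesothelial marker.

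Upk1b (chromosome 16, 38773184 to 38800328, minus strand) had 6.33, 8.75 and 7.91 RPKM in CTX 1, 2 and 3, against 11.11, 12.04 and 12.12 RPKM in controls 1, 2 and 3. The groups were 2.36 RPKM apart at their nearest libraries, the widest gap of the 8 markers, and the 3 controls lay close together. Its means were 7.66 ± 1.23 RPKM in CTX and 11.8 ± 0.561 in control, with a log2 fold change of −0.57 ± 0.14 and a 95% interval from −0.90 to −0.23. Its unadjusted limma p of 0.00569 was the smallest of the 8 and ranked 70 among 14535 genes.

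Upk3b (chromosome 5, 136038496 to 136046487, plus strand) had 5.95, 11.35 and 10.24 RPKM in CTX 1, 2 and 3, against 12.24, 9.89 and 12.67 RPKM in controls 1, 2 and 3. CTX 1 was far below the other libraries, and CTX 2 and 3 lay above control 2. The log2 fold change was −0.34 ± 0.24 with all libraries and −0.09 ± 0.13 without CTX 1. The difference in the mean of Upk3b rested on that library. For Upk1b the log2 fold change without CTX 1 was −0.45 ± 0.09.

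Epcam encodes an adhesion molecule of epithelial cells and marks simple epithelia in many organs. Epcam (chromosome 17, 87635979 to 87651129, plus strand) had 2.73, 4.93 and 4.55 RPKM in CTX 1, 2 and 3, against 8.28, 5.16 and 9.14 RPKM in controls 1, 2 and 3. The groups did not overlap, but control 2 was only 0.23 RPKM above CTX 2, and CTX 1 was the lowest. The means were 4.07 ± 1.18 RPKM in CTX and 7.53 ± 2.09 in control. The log2 fold change of −0.75 ± 0.26 was the most negative of the 8, with a 95% interval from −1.38 to −0.11 and an unadjusted limma p of 0.0275. Without CTX 1 it was −0.54 ± 0.23.

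Gpm6a, Lrrn4 and Bnc1 are better known from other tissues. Gpm6a encodes a membrane glycoprotein abundant in neurons, Lrrn4 a membrane protein with leucine-rich repeats, and Bnc1 the zinc finger transcription factor basonuclin 1 of keratinocytes and germ cells. All 3 are also found in mesothelium.

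Gpm6a (chromosome 8, 54954843 to 55060871, plus strand) had 2.54, 3.70 and 4.37 RPKM in CTX 1, 2 and 3, against 5.61, 5.01 and 4.39 RPKM in controls 1, 2 and 3. CTX 3 and control 3 differed by 0.02 RPKM, where each rests on about 239 and 237 reads, so these libraries cannot be told apart at this depth. With trimmed-mean scaling or quantile normalization the groups overlapped in Gpm6a. The log2 fold change was −0.42 ± 0.19 (95% interval −0.88 to 0.04, unadjusted limma p 0.0652), and −0.25 ± 0.13 without CTX 1.

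Lrrn4 (chromosome 2, 132868305 to 132880891, minus strand) had 0.56, 1.12 and 1.27 RPKM in CTX 1, 2 and 3, against 1.74, 1.24 and 1.28 RPKM in controls 1, 2 and 3. CTX 3 lay above control 2, and the groups overlapped by 0.03 RPKM. Its log2 fold change was −0.30 ± 0.20 with all libraries and −0.14 ± 0.15 without CTX 1. It has the fewest reads of the 7 markers with an exon length, about 38 in CTX 1 and 73 to 103 in the other libraries.

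Bnc1 (chromosome 7, 81966672 to 81992292, minus strand) had 0.71, 2.93 and 2.31 RPKM in CTX 1, 2 and 3, against 2.16, 1.54 and 2.83 RPKM in controls 1, 2 and 3. CTX libraries were both the lowest and the highest. Its log2 fold change was −0.16 ± 0.34 (95% interval −0.98 to 0.67), and it turned to 0.20 ± 0.21 without CTX 1. Mouse oocytes express Bnc1, and the oocyte growth factor gene Gdf9 had 17.7, 66.7 and 64.3 RPKM in CTX 1, 2 and 3, against 30.8, 25.0 and 56.3 RPKM in controls 1, 2 and 3. In both genes CTX 1 was the lowest, control 2 the next, control 1 the third, and CTX 2 above CTX 3. Not all oocyte genes had this order: Bmp15 had 7.1 RPKM in control 1 and 7.27 in control 2, and 20.28 in CTX 2 and 21.55 in CTX 3. The transcription factor gene Wt1, which granulosa cells also express, had this order too. The part of oocyte RNA in the Bnc1 values was not tested.

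**Figure D2:**
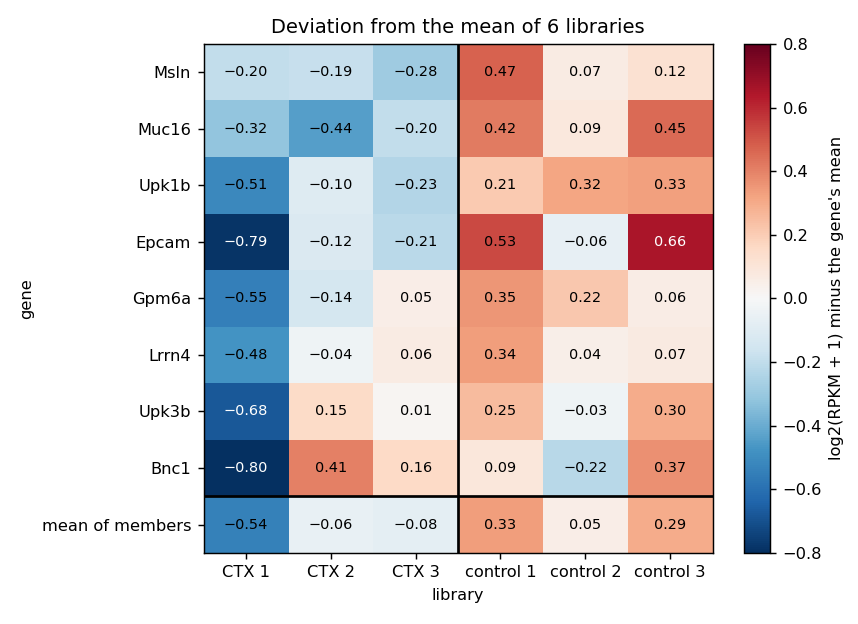
Deviation of log2(RPKM + 1) from the mean of the 6 libraries for each marker (rows; CTX libraries left of the line, control libraries right) and for the mean of the 8 markers. Msln, Muc16, Upk1b and Epcam are below their mean in all 3 CTX libraries, whereas in Bnc1 and Upk3b CTX 1 is low and CTX 2 and 3 are above the mean.

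The markers differed most among themselves in CTX 2, from −0.44 (Muc16) to 0.41 (Bnc1) on the log2 scale. In CTX 1 all 8 were below their mean over the 6 libraries, by 0.20 (Msln) to 0.80 (Bnc1) on the log2 scale. In CTX 2, Msln, Muc16, Upk1b, Epcam, Gpm6a and Lrrn4 were below their mean, and Upk3b and Bnc1 were above it. By root mean square difference between centred profiles, Lrrn4 and Gpm6a were the most alike pair (0.09 on the log2 scale) and Muc16 and Bnc1 the least (0.46). Averaged over the 8 markers, the deviation was −0.54, −0.06 and −0.08 in CTX 1, 2 and 3, against 0.33, 0.05 and 0.29 in controls 1, 2 and 3.

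Outside the markers, the 6 genes nearest to this mean profile were Slc7a2, Appl2, Extl1, Npr1, Plet1 and Xdh. Their root mean square differences from it were 0.02 to 0.07, against a root mean square of 0.29 for the profile itself. Slc7a2, encoding a transporter of cationic amino acids, was the nearest, with 3.10, 4.78 and 4.86 RPKM in CTX 1, 2 and 3, against 6.63, 5.20 and 6.35 RPKM in controls 1, 2 and 3. Appl2 encodes an endosomal adaptor, Extl1 an exostosin-like glycosyltransferase, Npr1 a receptor of natriuretic peptides, Plet1 a surface protein of epithelia, and Xdh xanthine dehydrogenase. They were selected for this likeness, so their fold changes carry no separate weight.

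The rest of the surface layer was followed through 14 further genes of mesothelium and ovarian surface epithelium. Of these, 13 passed the filter, 0 were called higher and 0 lower, and the log2 fold change was negative in 12. The median over the 13 was −0.34, against −0.01 over all genes tested. Every CTX library lay below every control library in 4 of the 13, against 5.5% of all genes tested. At an unadjusted limma p under 0.05, 5 were lower in CTX, against 2.29% of all genes. Pkhd1l1, which did not pass the filter, had 0.31, 0.64 and 0.63 RPKM in CTX 1, 2 and 3, against 0.86, 0.76 and 0.80 in controls 1, 2 and 3.

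Aldh1a2, which encodes a retinaldehyde dehydrogenase that makes retinoic acid, had the smallest unadjusted p of this list (0.0039 in limma). It had 17.0, 25.5 and 22.6 RPKM in CTX 1, 2 and 3, against 39.0, 34.2 and 49.5 RPKM in controls 1, 2 and 3. The groups were 8.62 RPKM apart at their nearest libraries, and the log2 fold change was −0.88 ± 0.20, with an adjusted p of 0.99997 in limma. Krt7, a keratin of simple epithelia, averaged 2.14 ± 0.156 RPKM in CTX and 3.21 ± 0.450 in control. Ildr2, encoding an immunoglobulin-domain membrane protein, averaged 3.21 ± 0.621 RPKM in CTX and 4.76 ± 0.570 in control. Podxl, the sialomucin podocalyxin, which endothelium also makes, averaged 18 ± 2.0 RPKM in CTX and 22.4 ± 1.57 in control. In these 4 genes the groups did not overlap.

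In the other surface genes that passed the filter the groups overlapped. Lgr5, a receptor of R-spondins that marks stem cells of several epithelia, had the most negative log2 fold change of the list (−0.96 ± 0.33), with 3.73, 1.81 and 1.71 RPKM in CTX 1, 2 and 3, against 5.97, 7.83 and 3.33 RPKM in controls 1, 2 and 3. CTX 1 lay above control 3. Rspo1, an R-spondin that amplifies WNT signals, averaged 3.13 ± 1.30 RPKM in CTX and 4.98 ± 0.727 in control. The epithelial cadherin gene Cdh1 averaged 1.55 ± 0.653 RPKM in CTX and 2.20 ± 0.569 in control. Without CTX 1 the log2 fold change was −0.37 for Rspo1, against −0.57 with all libraries, and −0.11 for Cdh1, against −0.34.

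The keratins had log2 fold changes of both signs. Krt19 averaged 7.36 ± 2.60 RPKM in CTX and 12.1 ± 3.90 in control, and Krt18 averaged 9.07 ± 2.16 in CTX and 11.5 ± 1.98 in control. Without CTX 1 the log2 fold change was −0.36 for Krt19, against −0.66 with all libraries, and −0.14 for Krt18, against −0.33. Krt8, the partner of Krt18 in keratin filaments, was the one surface gene of the 13 with a positive log2 fold change (0.23 ± 0.16), at 19.2 ± 2.12 RPKM in CTX and 16.3 ± 3.01 in control. Nkain4, encoding a protein that interacts with a sodium pump, had a log2 fold change of −0.26 ± 0.14. Cldn15, a claudin of cell junctions, and Wt1, a transcription factor that granulosa cells also express, had log2 fold changes of −0.01 ± 0.16 and −0.0004 ± 0.43. Those of Cldn15 and Wt1 turned positive with trimmed-mean scaling or quantile normalization.

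**Figure D3:**
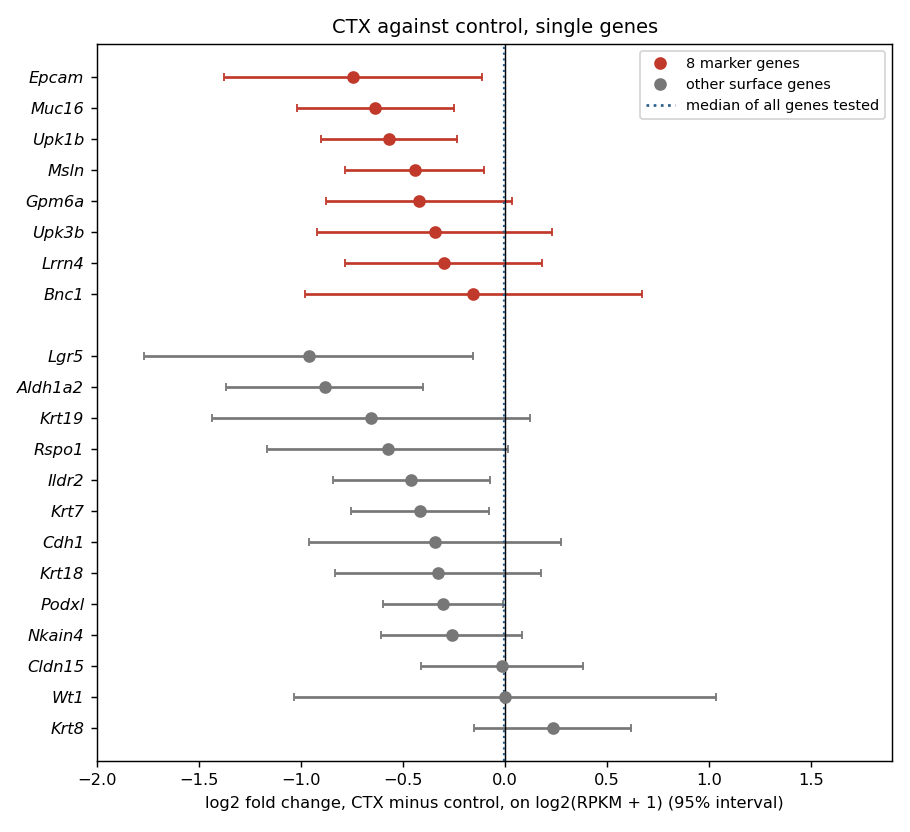
Log2 fold change (horizontal axis, CTX minus control on log2(RPKM + 1)) with its unadjusted 95% interval from limma for the 8 markers (red) and the 13 other surface genes that passed the filter (grey). The intervals of Epcam, Muc16, Upk1b and Msln lie below 0, and those of Gpm6a, Upk3b, Lrrn4 and Bnc1 cross it. Krt8 is the one gene with a positive fold change, and its interval also crosses 0. The dotted line is the median of all genes tested.

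Other tissue carried with an ovary could bring surface markers along, so its genes were read in the same libraries. Summed over the 8 markers, the level was 27.7, 41.5 and 39.2 RPKM in CTX 1, 2 and 3, against 56.6, 46.2 and 55.2 RPKM in controls 1, 2 and 3. Oviduct genes summed to 6.31, 18.5 and 19.9 RPKM in CTX 1, 2 and 3, against 8.17, 7.43 and 13.7 RPKM in controls 1, 2 and 3. Of these 8 genes, 5 were under 1 RPKM in every library. Foxj1 of ciliated cells was at 0.06 to 0.21 RPKM in CTX and 0.07 to 0.14 in control. Pax8 of secretory cells was at 0 to 0.14 RPKM in CTX and 0.02 to 0.05 in control. The oviduct glycoprotein gene Ovgp1 passed the filter, with 0.85 to 2.16 RPKM in CTX and 0.83 to 1.49 in control. Ccdc39 passed too, with 1.39 to 2.25 RPKM in CTX and 1.8 to 2.4 in control. The part of oviduct in the surface marker values was not tested. Most of the oviduct sum was Tppp3, with 3.55, 13.9 and 14.9 RPKM in CTX 1, 2 and 3, against 4.49, 3.96 and 9.12 RPKM in controls 1, 2 and 3.

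Genes of fat, which lies around the ovary under its own mesothelium, divided the libraries in another way than the 8 markers did. The 7 adipocyte genes summed to 7.12, 181 and 169 RPKM in CTX 1, 2 and 3, against 8.54, 5.46 and 133 RPKM in controls 1, 2 and 3. Cfd, the most abundant of them, encodes the adipocyte protein adipsin and had 0.48, 109 and 97.1 RPKM in CTX 1, 2 and 3, against 1.63, 0.07 and 90.8 RPKM in controls 1, 2 and 3. The part of fat and its mesothelium in the surface marker values was not tested. Of 6 neuronal genes, read because Gpm6a is a neuronal gene, 4 were under 1 RPKM in every library, and the neuronal tubulin gene Tubb3 averaged 10.7 ± 1.48 RPKM in CTX and 11.0 ± 2.81 in control. Endothelial genes summed to 115 to 158 RPKM in CTX and 143 to 159 RPKM in control, with 7 of 8 log2 fold changes negative and a median of −0.23. Every CTX library lay below every control library in 2 of these 8, the receptor genes Tek (6.75 ± 0.434 RPKM in CTX and 8.76 ± 0.441 in control) and Tie1 (11.5 ± 0.868 in CTX and 13.98 ± 1.04 in control), against 5.5% of all genes tested. The unadjusted limma p was 0.0202 for Tek and 0.057 for Tie1. Cldn5, a claudin of vessels and the most abundant of the 8, overlapped, with 32.9 ± 5.70 RPKM in CTX and 36.7 ± 5.50 RPKM in control. The part of vessels in the surface marker values was not tested. Stromal genes summed to 322 to 530 RPKM in CTX and 333 to 605 RPKM in control. Of their 6 log2 fold changes 4 were positive and 2 negative, with a median of 0.17. Their most abundant gene, the matrix gene Dcn, was a negative one and averaged 175 ± 58.4 RPKM in CTX and 211 ± 67.8 in control.

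The follicle and luteal genes that define the ovary were present in every library. The 10 luteal genes summed to 10642, 3326 and 3174 RPKM in CTX 1, 2 and 3, against 8304, 9442 and 4208 RPKM in controls 1, 2 and 3. Their most abundant gene, Hsd3b1 of progesterone synthesis, averaged 3107 ± 1984 RPKM in CTX and 3912 ± 897 in control. The 9 granulosa genes summed to 666 to 2476 RPKM in CTX and 1014 to 2911 in control, with 5 of 9 log2 fold changes negative and a median of −0.04. Their most abundant gene, Inha, encoding an inhibin subunit, averaged 1239 ± 696 RPKM in CTX and 1097 ± 770 in control. In 1 of the 9, Inhbb, every CTX library lay below every control library, against 5.5% of all genes tested. Inhbb averaged 53.5 ± 28.8 RPKM in CTX and 143 ± 97.5 in control. The 10 oocyte genes summed to 99.2 to 372 RPKM in CTX and 138 to 324 in control, with Padi6 at 58.8 ± 34.0 RPKM in CTX and 41.4 ± 21.2 in control.

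**Figure D4:**
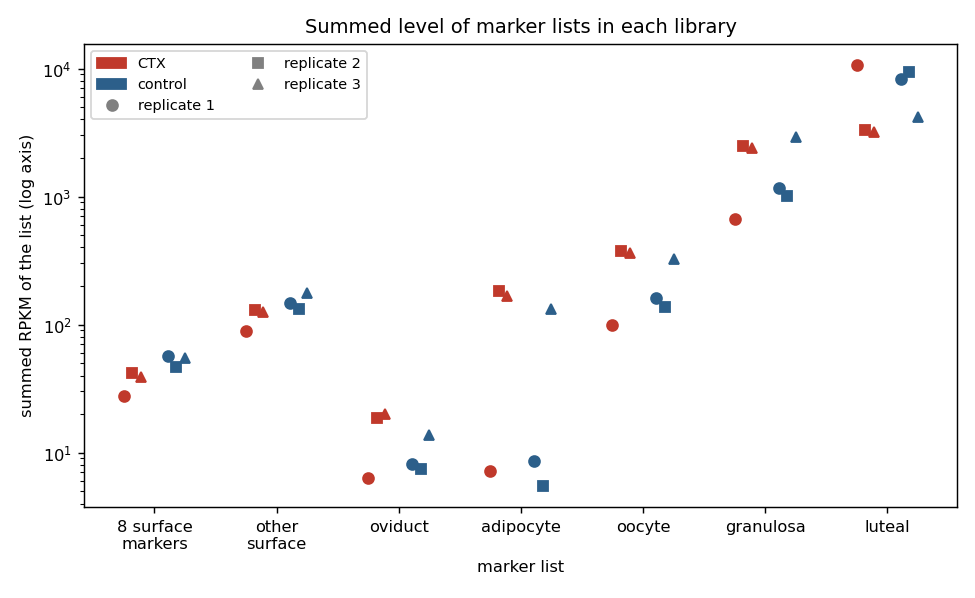
Summed RPKM (log axis) of the 8 surface markers and of 6 other marker lists in each library, CTX left of control and 1 symbol per replicate. The sum of the 8 surface markers lies between 27.7 and 41.5 RPKM in CTX and between 46.2 and 56.6 RPKM in control. The oviduct, adipocyte, oocyte, granulosa and luteal sums instead divide CTX 1 and controls 1 and 2 from the rest.

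When the mean level of the luteal genes was added to the fit, the 8 markers had log2 fold changes from −0.91 (Epcam) to −0.36 (Lrrn4), with a median of −0.48. In that fit 6 markers were lower in CTX at an unadjusted limma p under 0.05, all but Lrrn4 and Bnc1, against 7.85% of all genes tested. Upk1b had a log2 fold change of −0.63 (95% interval −0.88 to −0.37) and Epcam one of −0.91 (−1.29 to −0.53). None of the 8 passed, with adjusted p-values in limma of 0.165 to 0.465. Without CTX 1 and with no covariate, 3 markers were lower at an unadjusted limma p under 0.05, against 7.11% of all genes tested, and 7 of the 8 log2 fold changes were negative. The luteal level is itself measured in these 6 libraries, and the fit leaves 3 residual degrees of freedom.

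The stretch before the start of transcription is shown for 3 markers of unlike behaviour, Epcam, with no overlap between groups, and Upk3b and Bnc1, with overlap. RefSeq gave 7 windows before a transcript start for 6 of the 8 genes, Epcam, Muc16, Upk3b, Bnc1, Lrrn4 and Gpm6a. Those of Muc16 and Lrrn4 and 1 of Gpm6a lie wholly or partly within the RefSeq bounds of the gene and are not shown. Each sequence is the 250 bases before the start, 5′ to 3′ on the strand of the gene, on GRCm38.p6. Capitals mark GGGCGG, the GC box of SP and KLF factors, and GGAATG, the core of TEAD sites, on either strand.
Epcam, chr17:87635729-87635978, plus strand: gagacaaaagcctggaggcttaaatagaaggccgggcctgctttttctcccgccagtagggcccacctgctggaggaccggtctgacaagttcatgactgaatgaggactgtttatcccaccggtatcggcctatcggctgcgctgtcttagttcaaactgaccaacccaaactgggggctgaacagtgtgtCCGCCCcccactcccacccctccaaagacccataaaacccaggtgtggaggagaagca
Upk3b, chr5:136038246-136038495, plus strand: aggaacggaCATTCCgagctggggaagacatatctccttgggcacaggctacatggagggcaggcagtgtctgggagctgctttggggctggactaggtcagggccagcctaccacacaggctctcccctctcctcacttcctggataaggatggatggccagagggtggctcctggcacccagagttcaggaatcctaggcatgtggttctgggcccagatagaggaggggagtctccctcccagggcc
Bnc1, chr7:81992300-81992549, minus strand: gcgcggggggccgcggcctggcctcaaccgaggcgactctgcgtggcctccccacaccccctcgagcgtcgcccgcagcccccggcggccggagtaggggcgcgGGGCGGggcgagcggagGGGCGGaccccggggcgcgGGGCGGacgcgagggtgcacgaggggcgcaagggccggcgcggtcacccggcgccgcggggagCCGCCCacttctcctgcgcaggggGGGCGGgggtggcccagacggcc

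The window of Bnc1 was 83.6% G and C and held 5 GC boxes, and that of Epcam was 56.4% G and C and held 1. The window of Upk3b was 60.8% G and C and held 1 TEAD core. The median over all 32851 windows of the table was 52.4%. GC boxes were in 2 of the 7 marker windows and in 32.7% of all windows, and TEAD cores were in 3 of the 7 (Upk3b, Lrrn4 and 1 of Gpm6a) and in 12.6% of all windows. For the windows of Muc16 and Gpm6a, the bases after the start were not found in an annotated transcript of the gene. Their place before a start is therefore less certain. Of 5 other motifs searched on both strands, CACCTG, bound by ZEB and SNAI repressors, was in the Epcam window alone among the 7 (17.2% of all windows) and TATAAA in 1 Gpm6a window (12.4%). CCAAT (33.9% of all windows), TGANTCA of AP-1 (6.75%) and GCGNGGGCG of EGR and WT1 (4.70%) were in none of the 7. No 2 of these motifs share a position in the 3 windows shown. A match in letters is a description of the window and not evidence of binding. A link between the windows and the levels of the markers was not tested.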

How the data were processed

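Whole mouse ovaries were profiled by RNA sequencing in 6 libraries. Per the labels' protocols, RNA of snap-frozen ovaries was isolated with Trizol and made into Illumina TruSeq RNA libraries. The submitters' processing notes name Bowtie 0.12.2 and the mm10 build. The sources used here do not name the counter, annotation or filters. The authors deposited 1 value per gene and library, taken here as RPKM because low values of short genes step with exon length; no header states the unit, and 30 damaged or blank symbols were restored through their identifiers. Values were transformed as log2(RPKM + 1), which understates fold changes of low genes. Genes with at least 1 RPKM in at least 3 libraries were kept (14535 of 46078). The 2 groups were compared two-sided with limma 3.58.1 under R 4.3.3, using a mean-variance trend, with Benjamini-Hochberg adjustment over all genes kept and a threshold of 0.05. The code was tested on simulated data.

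Exon lengths and coordinates are from GENCODE M21 on GRCm38, the assembly of mm10, and promoter sequences are from RefSeq on GRCm38.p6. The members, the gene lists and the tests were chosen with earlier results of these data known. The genes named are the 8 members, the other surface genes kept, the most abundant gene of each further list, and the 6 genes whose profile lay nearest to that of the members. Named after their values were seen were Gdf9 and Bmp15, set beside Bnc1, Pkhd1l1, which missed the filter, and Tek and Tie1. So were the oviduct genes Foxj1, Pax8, Ovgp1 and Ccdc39, and genes called under an alternative. The alternatives were 2 other scalings, 2 pseudocounts, 2 filters, no trend, the replicate number as a block, the mean level of 10 luteal genes as a covariate, and each library left out in turn. The labels do not say whether each library is from its own animal. P-values therefore measure only the spread between the samples given, which may be technical.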

Additional observations from a re-analysis of the deposited data

How the results depend on the processing

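No surface marker was called in either direction under any of the 15 alternatives, and 306 of 315 values of 21 surface genes kept their direction and their side of the threshold. The 9 others are Bnc1, which ranged from −0.40 to 0.20 as each library was left out (0.20 without CTX 1), and Wt1 and Cldn15. Wt1 was 0.031 with trimmed-mean scaling and 0.031 with quantile normalization and ranged from −0.24 to 0.47 over the left-out libraries, and Cldn15 was 0.0089, 0.027 and −0.11 to 0.11. Over all genes, 0 to 6 were called higher and 0 to 7 lower as each library was left out, all of them without CTX 1. With the luteal covariate 2 genes were called lower, Coro2a and Inhbb, and Inhbb is the 1 call among the other lists. The cause was not tested. With the replicate number as a block 0 genes were called. Same-numbered libraries deviated with correlations of 0.40, −0.54 and 0.60 over all genes. These values cannot show whether the numbers pair the samples, and the labels do not say. At 3 against 3 libraries an exact permutation test of a single gene cannot give a p under 0.1. Any gene with no overlap between groups has that value, so for the 5 such markers it only restates the separation. Among the 7 markers with an exon length, depth limits Lrrn4 most, where about 38 reads in CTX 1 carry a counting error of about 16.2%.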
